A study of Homo sapiens with 12 samples.

Results

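Aminoacyl-tRNA synthetases are the enzymes that join each amino acid to its transfer RNA, the step that supplies protein synthesis with charged tRNA. The genes described here are 36 nuclear genes, 20 for cytosolic synthetases and 16 for the mitochondrial enzymes whose symbols end in 2, taken by symbol from the 56609 gene symbols measured. The deposited values hold all 36 under the listed symbols, and all 36 passed the filter on low values.

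RNA was sequenced from Ewing sarcoma cell lines and from derivatives that resist YK-4-279. Ewing sarcoma is a cancer of bone and soft tissue in which the fusion transcription factor EWS-FLI1 is the driver. YK-4-279 is an inhibitor of EWS-FLI1. There were 4 groups with 3 libraries each: A4573-R cells kept in YK-4-279, parental A4573 cells in DMSO, TC-71-R cells kept in YK-4-279, and parental TC-71 cells in DMSO. The dose in the labels is 650 uM (A4573-R) or 400 uM (TC-71-R), with the unit printed as they give it. These doses are very high for this compound, so the unit is in doubt, and no result here uses it. Cells of every group were grown in RPMI with 10% fetal bovine serum, and the labels name no genetic change made to any of them. Each derivative comes from 1 cell line, and resistance and exposure to the compound cannot be told apart in it. No label states that libraries of 1 group came from separate cultures, so the spread that p-values measure is that of the libraries alone and may be technical.

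The cytosolic enzymes charge tRNA for the ribosomes that translate nuclear genes. Several of them, with the scaffold proteins AIMP1, AIMP2 and EEF1E1, are held together in the multisynthetase complex. The mitochondrial enzymes are imported and charge tRNA for the few proteins encoded by mitochondrial DNA, while GARS and KARS each make both a cytosolic and a mitochondrial enzyme. When amino acids run short or the endoplasmic reticulum is stressed, kinases such as EIF2AK4 (GCN2) and EIF2AK3 (PERK) phosphorylate eIF2 alpha. Translation of the transcription factor ATF4 then goes up, and ATF4 activates genes for amino acid synthesis, amino acid transport and many of the cytosolic synthetases.

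ATF4 pairs with C/EBP proteins on a composite DNA element, and the letters TGATGNAA, or TTNCATCA on the other strand, were searched on both strands of the promoters because many cytosolic synthetase genes are known ATF4 targets. The windows run from 250 bases before to 50 bases after each RefSeq start site on GRCh38.p14. Windows were at hand for 30 of the 36 genes, and none was found under the symbols searched for DARS, LARS, VARS, YARS, AARS2 and VARS2. The motif was present in the windows of 7 of 16 cytosolic genes (43.8%) and 1 of 14 mitochondrial genes (7.14%). Among all genes with such windows 1217 of 27305 (4.46%) held it. The 30 bases around each match are printed 5′ to 3′ on the strand of the gene, with the match in capitals, to show that 5 of the 7 cytosolic genes share the letters TTGCATCA.
AARS: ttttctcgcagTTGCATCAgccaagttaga
CARS: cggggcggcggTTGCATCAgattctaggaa
IARS: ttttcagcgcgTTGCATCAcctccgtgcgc
MARS: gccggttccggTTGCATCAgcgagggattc
TARS: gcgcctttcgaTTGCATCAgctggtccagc
GARS: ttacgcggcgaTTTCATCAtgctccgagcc
NARS: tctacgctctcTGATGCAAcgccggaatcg
YARS2: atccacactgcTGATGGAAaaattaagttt

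These stretches lie at chr16:70289675-70289704 (AARS, minus strand), chr11:3057407-3057436 (CARS, minus), chr9:92293692-92293721 (IARS, minus), chr12:57488053-57488082 (MARS, plus), chr5:33440956-33440985 (TARS, plus), chr7:30594834-30594863 (GARS, plus), chr18:57621804-57621833 (NARS, minus) and chr12:32756076-32756105 (YARS2, minus). The first base of the match stands close to the start site in CARS (-2), MARS (-4), TARS (3), IARS (-13), NARS (15) and GARS (-33), and farther upstream in AARS (-187) and YARS2 (-197). In NARS the match reads in the opposite orientation, as the reverse complement of TTGCATCA. A match is a description of the letters in this window and says nothing of whether ATF4 binds there.

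Each library has between 44.0 and 62.1 M reads on named genes (M, 1000000). The unit is CPM, counts per 1000000 reads. The authors scaled the library sizes, and these include 5 entries with no gene name that hold 30.6% to 42.0% of the reads. Within a group, pairs of libraries correlate at r of 0.9974 to 0.9993 on log2(CPM + 1). Summed over 8 Ewing sarcoma markers, the level was 533 to 565 CPM in A4573-R and 869 to 900 CPM in A4573 parental. It was 1489 to 1529 CPM in TC-71-R and 1116 to 1122 CPM in TC-71 parental. Of these 8 markers, 6 reached 1 CPM in every group, and CD99 and FATE1 were under 1 CPM in all 4. The cause of these low values was not tested, and protein was not measured. Summed markers of blood cells stayed at or under 1.14 CPM and those of endothelium at or under 0.787 CPM. Summed epithelial markers were 1.62 to 1.81 CPM in A4573-R, 0.585 to 0.940 CPM in A4573 parental, 4.65 to 5.39 CPM in TC-71-R and 21.4 to 22.4 CPM in TC-71 parental, with CDH1 under 1 CPM in all 4 groups. Summed fibroblast and muscle markers were 302 to 308 CPM in A4573-R, 389 to 403 CPM in A4573 parental, 79.9 to 80.2 CPM in TC-71-R and 27.7 to 28.5 CPM in TC-71 parental, with DES and MYOD1 under 1 CPM in all 4 groups. The part of these markers in the changes below was not tested. Changes are log2 fold changes of CPM + 1 from limma, with Benjamini-Hochberg adjusted p over 14335 genes and a threshold of 0.05. Genes past it are said to have risen or fallen, or to be higher or lower. In such bulk RNA, fewer cells of a type and less RNA per cell cannot be told apart.

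Summed over the 20 genes, cytosolic synthetase mRNA in TC-71 parental stood apart from the other 3 groups. The sum was 3760 ± 382 CPM in A4573-R and 3522 ± 34.0 CPM in A4573 parental (SD, n = 3 each). It was 3837 ± 95.1 CPM in TC-71-R and 6647 ± 45.3 CPM in TC-71 parental (SD, n = 3 each). By library the sum was 3674, 4178 and 3429 CPM in A4573-R, against 3485, 3528 and 3552 CPM in A4573 parental. It was 3894, 3889 and 3727 CPM in TC-71-R, against 6595, 6673 and 6673 CPM in TC-71 parental. The A4573 groups overlap, while every TC-71-R library lies below every TC-71 parental library and within the range spanned by the A4573-R libraries. The mitochondrial sum moved little within a line, with 631 ± 13.6 CPM in A4573-R and 658 ± 8.76 CPM in A4573 parental, and 527 ± 5.45 CPM in TC-71-R and 539 ± 1.197 CPM in TC-71 parental (SD, n = 3 each). Small as these shifts are, in each line every resistant library had a lower mitochondrial sum than every parental library. Cytosolic over mitochondrial sum was therefore 5.35 to 6.79 in A4573-R and 5.32 to 5.37 in A4573 parental, and 7.001 to 7.46 in TC-71-R and 12.3 to 12.4 in TC-71 parental. The sums weigh abundant genes most, and no test was run on them.

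**Figure D1:**
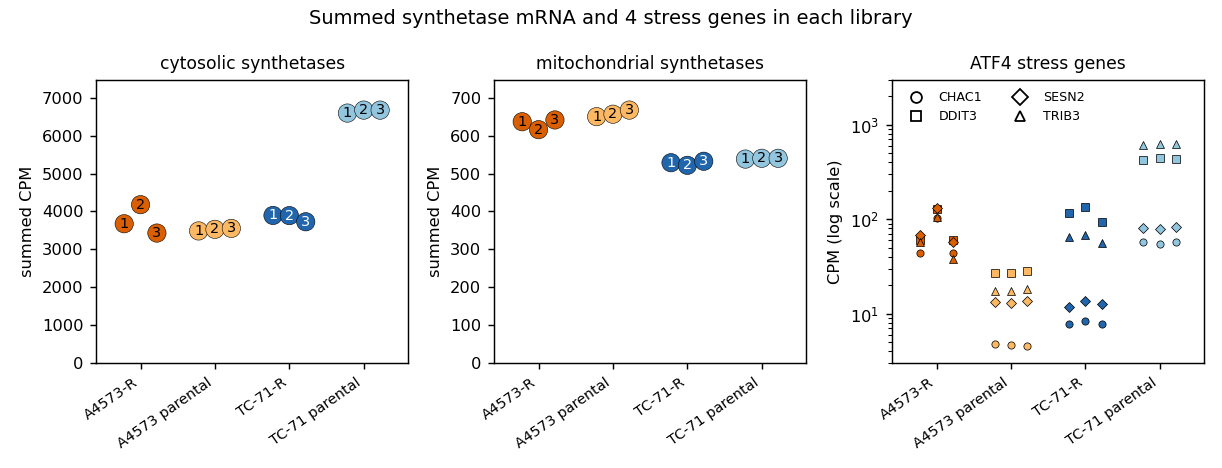
Summed CPM of the 20 cytosolic (left) and 16 mitochondrial (middle) synthetase genes, and CPM of CHAC1, DDIT3, SESN2 and TRIB3 on a log scale (right), for each library of the 4 groups. Digits are replicate numbers. The TC-71 parental libraries stand at 6595 to 6673 CPM in the cytosolic panel, the other 9 libraries at 3429 to 4178 CPM, and A4573-R replicate 2 is the highest of these 9.

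Divided by exon length, the median cytosolic gene had 34.7 ± 2.71 CPM per kb in A4573-R, 34.3 ± 0.396 in A4573 parental, 30.2 ± 0.381 in TC-71-R and 44.4 ± 0.528 in TC-71 parental (SD, n = 3 each). The median mitochondrial gene had 5.39 ± 0.211 CPM per kb in A4573-R, 5.72 ± 0.0820 in A4573 parental, 5.54 ± 0.328 in TC-71-R and 5.62 ± 0.125 in TC-71 parental (SD, n = 3 each). The leading genes per length differed between the lines. MARS, the methionyl enzyme, ranked 1st of the 36 in A4573-R (79.5 CPM per kb) and in A4573 parental (68.2 CPM per kb). SARS, the seryl enzyme, ranked 1st in TC-71-R (121 CPM per kb), ahead of AARS, the alanyl enzyme (116 CPM per kb). In TC-71 parental the order was AARS (200 CPM per kb), SARS (185 CPM per kb) and WARS, the tryptophanyl enzyme (141 CPM per kb). WARS was only 25th in A4573-R and 24th in A4573 parental. Among mitochondrial genes IARS2, the isoleucyl enzyme, had the highest level per length in every group (59.9 CPM per kb in A4573-R, 60.6 in A4573 parental, 32.3 in TC-71-R and 29.8 in TC-71 parental). SARS2 had the lowest, at 0.446 CPM per kb in A4573-R, 0.456 in A4573 parental, 0.536 in TC-71-R and 0.423 in TC-71 parental.

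In TC-71-R set against TC-71 parental most cytosolic synthetase mRNAs were lower. Of the 20, 15 fell, 3 rose and 2 did not pass, and their median log2 fold change was -0.60 against -0.00 for all genes tested. By 1.5-fold or more, 12 fell and 2 rose. Of all tested genes, 39.6% fell and 38.8% rose in this comparison, and by 1.5-fold or more 14.1% fell and 12.9% rose. Of the 16 mitochondrial genes, 6 rose, 4 fell and 6 did not pass, with a median of 0.01, and only MARS2 changed by 1.5-fold or more. That split turned to 3 higher and 8 lower, with a median of -0.06, when CPM were taken over the reads of named genes alone. The libraries of the 2 groups did not overlap for 18 of 20 cytosolic and 11 of 16 mitochondrial genes, against 81.1% of all tested genes.

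WARS had 240.6, 213.8 and 234.0 CPM in TC-71-R, against 900.6, 892.2 and 900.3 CPM in TC-71 parental. Each TC-71-R library lies far below each TC-71 parental library, and the gene fell by 1.97 on the log2 scale (SE 0.04, adjusted p = 4.4e-15 by limma). WARS (chr14:100333788-100376805, minus strand, GENCODE 29 on GRCh38) is also known as an interferon-induced gene. MARS (chr12:57475445-57517569, plus strand) had 171.8, 171.1 and 172.1 CPM in TC-71-R, against 576.6, 581.1 and 594.7 CPM in TC-71 parental. The groups are widely apart, and MARS fell by 1.76 (SE 0.07, adjusted p = 3.6e-12 by limma). Of the exon bases of MARS, 13.3% are shared with ARHGAP9, DDIT3 and MIR6758, nearly all on the opposite strand, and use of strand in the counting was not given in the sources used here. DDIT3, the stress factor CHOP, named here for this overlap after its values were seen, had 115 ± 20.9 CPM in TC-71-R and 436 ± 7.07 CPM in TC-71 parental (SD, n = 3 each), and its part in the reads of MARS was not tested.

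GARS, the glycyl enzyme (chr7:30594681-30634033, plus strand), had 186.9, 189.7 and 182.9 CPM in TC-71-R, against 452.4, 460.4 and 463.4 CPM in TC-71 parental, and fell by 1.29. NARS, the asparaginyl enzyme, had 158.5, 161.4 and 159.0 CPM in TC-71-R, against 340.1, 337.3 and 336.3 CPM in TC-71 parental, and fell by 1.08. YARS, the tyrosyl enzyme, had 162.4, 161.2 and 154.1 CPM in TC-71-R, against 314.3, 320.9 and 318.9 CPM in TC-71 parental, and fell by 0.99. None of these genes had overlapping groups, and their adjusted p-values from limma were 1.9e-08, 5.3e-10 and 9e-10. TARS, the threonyl enzyme, had 152.4, 155.0 and 148.0 CPM in TC-71-R, against 280.8, 289.2 and 289.6 CPM in TC-71 parental, and fell by 0.91. AARS (chr16:70252295-70289543, minus strand) had 540.5, 544.5 and 475.4 CPM in TC-71-R, against 897.3, 908.2 and 890.6 CPM in TC-71 parental, and fell by 0.79. The groups of both genes are apart, and in AARS the TC-71-R library of replicate 3 lies below the other 2.

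SARS fell by 0.61, CARS, the cysteinyl enzyme, by 0.60 and FARSB, the beta subunit of the phenylalanyl enzyme, by 0.36. HARS, the histidyl enzyme, fell by 0.12 and VARS, the valyl enzyme, also by 0.12. The fall of VARS no longer passed with edgeR or without TC-71 parental replicate 3 or TC-71-R replicate 1 (adjusted p of 0.054 to 0.064). FARSA, the alpha subunit of the same phenylalanyl enzyme, had 79.65, 80.12 and 81.78 CPM in TC-71-R, against 59.48, 57.83 and 58.76 CPM in TC-71 parental. It rose by 0.45 (SE 0.03, adjusted p = 6.2e-09 by limma), so the mRNAs of the 2 subunits of 1 enzyme moved in opposite directions in TC-71-R. FARSA was the only one of the 12 cytosolic genes outside the multisynthetase complex that rose in this comparison, and the 11 others fell. Of all tested genes, 38.8% rose and 39.6% fell.

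Inside the complex 4 of 8 genes were lower, 2 were higher and 2 did not pass. Of all tested genes, 39.6% fell and 38.8% rose in this comparison. Besides MARS, LARS, the leucyl enzyme, fell by 0.71, IARS, the isoleucyl enzyme, by 0.64, and EPRS, which carries glutamyl and prolyl activity in 1 protein, by 0.59. EPRS had 171.2, 174.0 and 164.6 CPM in TC-71-R, against 252.7, 258.9 and 256.4 CPM in TC-71 parental. QARS, the glutaminyl enzyme (chr3:49095932-49105135, minus strand), went the other way. It had 234.1, 237.8 and 229.0 CPM in TC-71-R, against 126.4, 125.1 and 124.9 CPM in TC-71 parental, and rose by 0.89 (SE 0.03, adjusted p = 3.9e-13 by limma), the largest rise of the 36 genes. RARS, the arginyl enzyme (chr5:168486445-168519299, plus strand), had 66.09, 67.02 and 65.07 CPM in TC-71-R, against 40.69, 43.05 and 42.15 CPM in TC-71 parental. It rose by 0.64 (SE 0.04, adjusted p = 2.8e-10 by limma). DARS, the aspartyl enzyme, had a log2 fold change of -0.07 (adjusted p = 0.09 by limma). It passed as lower under 4 other settings. These were TMM scaling, CPM over named genes, the TC-71 libraries fitted alone, and all libraries without A4573-R replicate 2. KARS, the lysyl enzyme, averaged 185.3 ± 7.41 CPM in A4573-R, 185.3 ± 5.91 CPM in A4573 parental, 189.8 ± 6.22 CPM in TC-71-R and 186.5 ± 4.42 CPM in TC-71 parental (SD, n = 3 each). Its log2 fold change in TC-71-R was 0.03 (SE 0.04, adjusted p = 0.57 by limma), within the spread of its libraries.

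**Figure D2:**
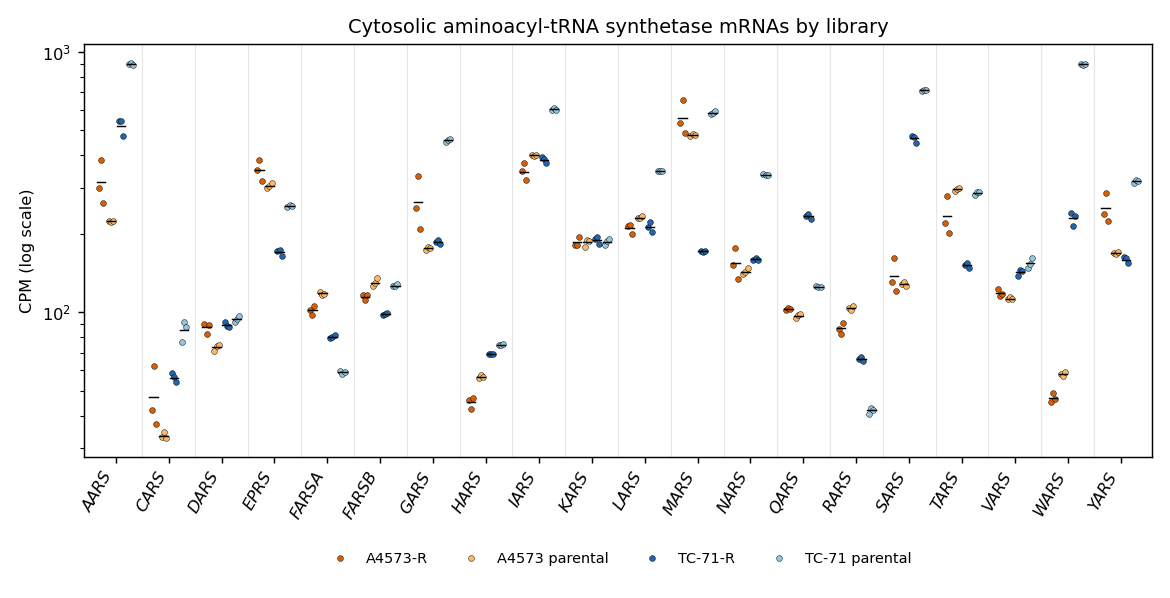
CPM of the 20 cytosolic synthetase genes on a log scale, 1 point per library and a line at the mean of each group. The 3 libraries of TC-71 parental lie above those of TC-71-R for WARS, MARS, GARS, NARS and YARS, below them for QARS, RARS and FARSA, and KARS averages 185.3 to 189.8 CPM in all 4 groups.

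MARS2, the mitochondrial methionyl enzyme (chr2:197705369-197708387, plus strand), was the mitochondrial gene that changed most in TC-71-R. It had 17.77, 18.96 and 19.03 CPM in TC-71-R, against 37.97, 35.63 and 35.53 CPM in TC-71 parental, and fell by 0.93 (SE 0.05, adjusted p = 3.6e-10 by limma). YARS2, for tyrosine, had 27.47, 27.35 and 27.95 CPM in TC-71-R, against 35.35, 34.66 and 35.52 CPM in TC-71 parental, and fell by 0.34. WARS2, for tryptophan, had 10.99, 11.87 and 11.70 CPM in TC-71-R, against 8.205, 8.465 and 8.139 CPM in TC-71 parental, and rose by 0.43. The 2 tryptophanyl enzymes thus changed in opposite directions in TC-71-R. FARS2, for phenylalanine, rose by 0.29 and IARS2 by 0.12, and the call on IARS2 was lost with CPM over named genes (adjusted p = 0.16). Smaller calls were less stable. RARS2 rose by 0.13 and VARS2 by 0.14, and HARS2 fell by 0.10 and LARS2 by 0.12, and each of these 4 lost its call under 3 to 7 of the 22 other settings run. The values were -0.07 for LARS2 and 0.09 for VARS2 without TC-71-R replicate 2, and 0.08 for RARS2 without TC-71-R replicate 3. SARS2 had few reads, with 1.73 ± 0.132 CPM in TC-71-R and 1.37 ± 0.112 CPM in TC-71 parental (SD, n = 3 each). It rose by 0.21, and without a filter its adjusted p was 0.052. Of the exon bases of SARS2, 57.0% are shared with MRPS12 and AC011455.2, so its reads cannot be assigned to it with certainty. VARS2 shares 21.99% of its exon bases with GTF2H4 on the same strand, and HARS2 shares 15.8% with HARS and ZMAT2. AARS2, CARS2, EARS2, NARS2, PARS2 and TARS2 did not pass in TC-71-R, with log2 fold changes of -0.10 to 0.05.

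**Figure D3:**
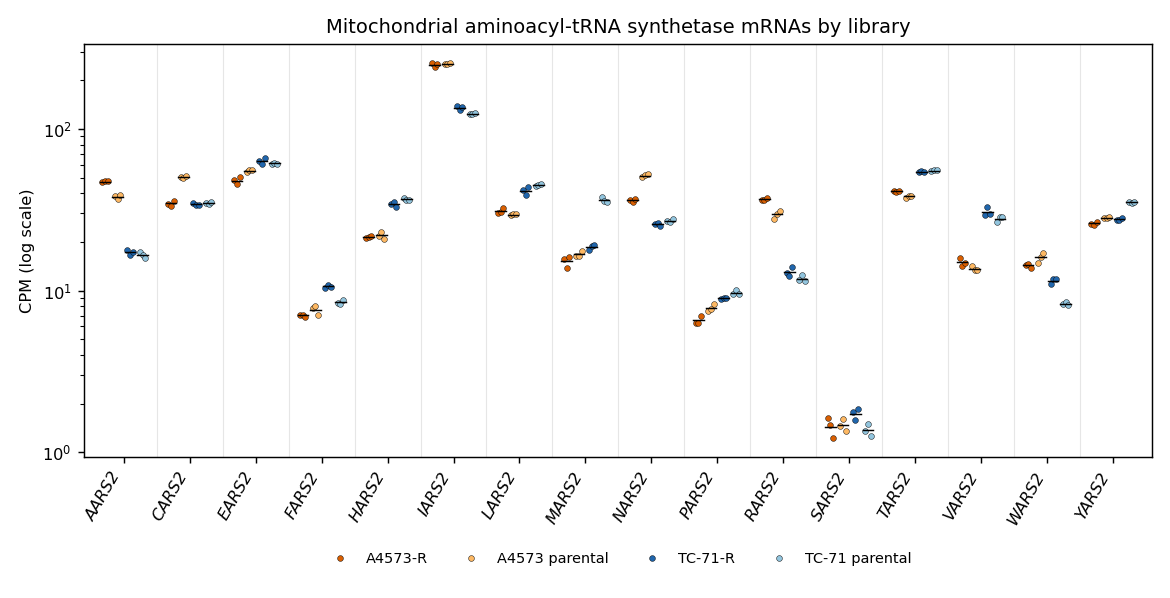
CPM of the 16 mitochondrial synthetase genes on a log scale, 1 point per library and a line at the mean of each group. IARS2 averages 249.6 CPM in A4573-R, 252.3 in A4573 parental, 134.7 in TC-71-R and 124.1 in TC-71 parental, SARS2 stays under 2 CPM, and MARS2 shows the widest gap between TC-71-R and TC-71 parental.

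In A4573-R set against A4573 parental the cytosolic genes split evenly. Of the 20, 8 rose, 8 fell and 4 did not pass, with a median log2 fold change of 0.08 against 0.02 for all genes tested. None of the 36 changed by 1.5-fold or more on the log2(CPM + 1) scale, against 10.4% of all tested genes higher and 8.19% lower by that size. Of all tested genes, 38.3% rose and 34.1% fell. Of the 16 mitochondrial genes, 3 rose, 7 fell and 6 did not pass, with a median of -0.07. The groups did not overlap for 17 of 20 cytosolic and 11 of 16 mitochondrial genes, against 74.6% of all tested genes.

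The genes that rose in A4573-R include several that fell furthest in TC-71-R. GARS had 251.4, 334.1 and 209.0 CPM in A4573-R, against 173.9, 177.7 and 177.0 CPM in A4573 parental, and rose by 0.56 (SE 0.11, adjusted p = 0.00023 by limma). YARS had 239.3, 288.0 and 224.9 CPM in A4573-R, against 169.5, 168.0 and 170.2 CPM in A4573 parental, and rose by 0.56 (SE 0.06, adjusted p = 1.2e-06 by limma). For both genes every A4573-R library lies above every A4573 parental library, but the A4573-R libraries are spread widely. The standard errors use a spread shared with the less variable groups and can be too small here. AARS had 301.1, 383.3 and 261.8 CPM in A4573-R, against 223.5, 221.9 and 224.4 CPM in A4573 parental, and rose by 0.48. CARS had 42.12, 62.35 and 37.32 CPM in A4573-R, against 33.24, 34.53 and 32.92 CPM in A4573 parental, and rose by 0.45. In both, A4573-R replicate 2 is the highest and replicate 3 the lowest of the resistant libraries, and the groups do not overlap. Without replicate 2 the log2 fold change of CARS was 0.23 (adjusted p = 0.0052 by limma), that of GARS 0.38, of AARS 0.33 and of YARS 0.45. DARS rose by 0.25 and EPRS by 0.19, and without replicate 2 the value of EPRS was 0.13 (adjusted p = 0.014 by limma). MARS had 534.3, 651.2 and 489.7 CPM in A4573-R, against 475.0, 482.3 and 480.6 CPM in A4573 parental, and rose by 0.21 (adjusted p = 0.014 by limma). Without replicate 2 the log2 fold change of MARS was 0.09 (adjusted p = 0.037 by limma). The call on MARS was lost without a filter on low values (adjusted p = 0.057) and when the A4573 libraries were fitted alone (adjusted p = 0.082). QARS rose by 0.08 (adjusted p = 0.021 by limma), a call lost with edgeR (adjusted p = 0.1) and without A4573 parental replicate 1 (adjusted p = 0.095).

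Of the 8 cytosolic genes that fell in A4573-R, TARS fell most. It had 219.8, 279.7 and 202.0 CPM in A4573-R, against 290.8, 298.1 and 299.9 CPM in A4573 parental, and fell by 0.35 (SE 0.08, adjusted p = 0.00091 by limma). HARS fell by 0.31, WARS by 0.30, RARS by 0.26, FARSA by 0.21, IARS by 0.21, FARSB by 0.18 and LARS by 0.14. WARS had 45.25, 49.00 and 46.48 CPM in A4573-R, against 57.83, 57.11 and 59.14 CPM in A4573 parental, with no overlap between the groups. KARS, NARS, SARS and VARS did not pass in A4573-R (log2 fold changes of 0.00, 0.10, 0.09 and 0.07). Without A4573-R replicate 3, NARS (adjusted p = 0.003) and SARS (adjusted p = 0.023) passed as higher.

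Among mitochondrial genes in A4573-R, CARS2, for cysteine, had 34.19, 33.56 and 36.003 CPM, against 50.55, 49.33 and 51.09 CPM in A4573 parental, and fell by 0.53 (SE 0.03, adjusted p = 2.2e-09 by limma). NARS2, for asparagine, had 36.32, 35.23 and 36.93 CPM in A4573-R, against 50.48, 51.47 and 52.27 CPM in A4573 parental, and fell by 0.50. For both genes all A4573-R libraries lie below all A4573 parental libraries, while CARS rose and NARS did not pass. PARS2, for proline, fell by 0.22, EARS2, for glutamate, by 0.20 and YARS2 by 0.11. WARS2 fell by 0.15 and MARS2 by 0.14, calls lost under 3 and 4 of the 22 other settings, and the value of MARS2 was -0.07 without A4573-R replicate 2. AARS2, for alanine, had 46.71, 47.49 and 47.30 CPM in A4573-R, against 38.48, 36.57 and 38.76 CPM in A4573 parental, and rose by 0.31. RARS2, for arginine, rose by 0.30 and TARS2, for threonine, by 0.11. FARS2, HARS2, IARS2, LARS2, SARS2 and VARS2 did not pass, with log2 fold changes of -0.10 to 0.12.

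The A4573-R libraries were the most variable in cytosolic synthetase mRNA. The median SD between A4573-R libraries was 0.0898 on the log2 scale for cytosolic genes, against 0.0410 for mitochondrial genes and 0.0676 for all tested genes. In A4573 parental the cytosolic median SD was 0.0222. Replicate 2 was the highest of the 3 A4573-R libraries for 13 of 20 cytosolic genes and 2 of 16 mitochondrial genes, against 26.8% of all tested genes. In 11 cytosolic genes (AARS, CARS, EPRS, GARS, IARS, LARS, MARS, NARS, SARS, TARS and YARS) and 1 mitochondrial gene (WARS2) replicate 2 was highest and replicate 3 lowest, an order seen in 15.6% of all tested genes. Replicate 2 was also highest for 25 of 26 genes of a list of ATF4 stress and amino acid synthesis genes. Without replicate 2, 8 cytosolic genes were still higher and 8 lower, with a median of 0.01. Without replicate 3, 10 were higher and 8 lower.

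The change in TC-71-R minus the change in A4573-R was tested directly as an interaction. It was negative and past the threshold for 15 of 20 cytosolic genes, positive for 4 (QARS, RARS, FARSA and HARS) and not passed for KARS, with a median of -0.57 against -0.01 for all genes tested. For mitochondrial genes it was negative for 6, positive for 7 and not passed for 3 (HARS2, PARS2 and VARS2), with a median of 0.07, and with CPM over named genes it was negative for 7 and positive for 5. Of all tested genes, 40.2% had a negative and 37.9% a positive difference. The largest negative differences were MARS (-1.97), GARS (-1.85), WARS (-1.66), YARS (-1.55) and AARS (-1.27). Called in opposite directions in the 2 lines, AARS, CARS, EPRS, GARS, MARS and YARS were higher in A4573-R and lower in TC-71-R, and FARSA, RARS and WARS2 were lower in A4573-R and higher in TC-71-R. Called lower in both were FARSB, HARS, IARS, LARS, TARS, WARS, MARS2 and YARS2. Called higher in both were QARS and RARS2.

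**Figure D4:**
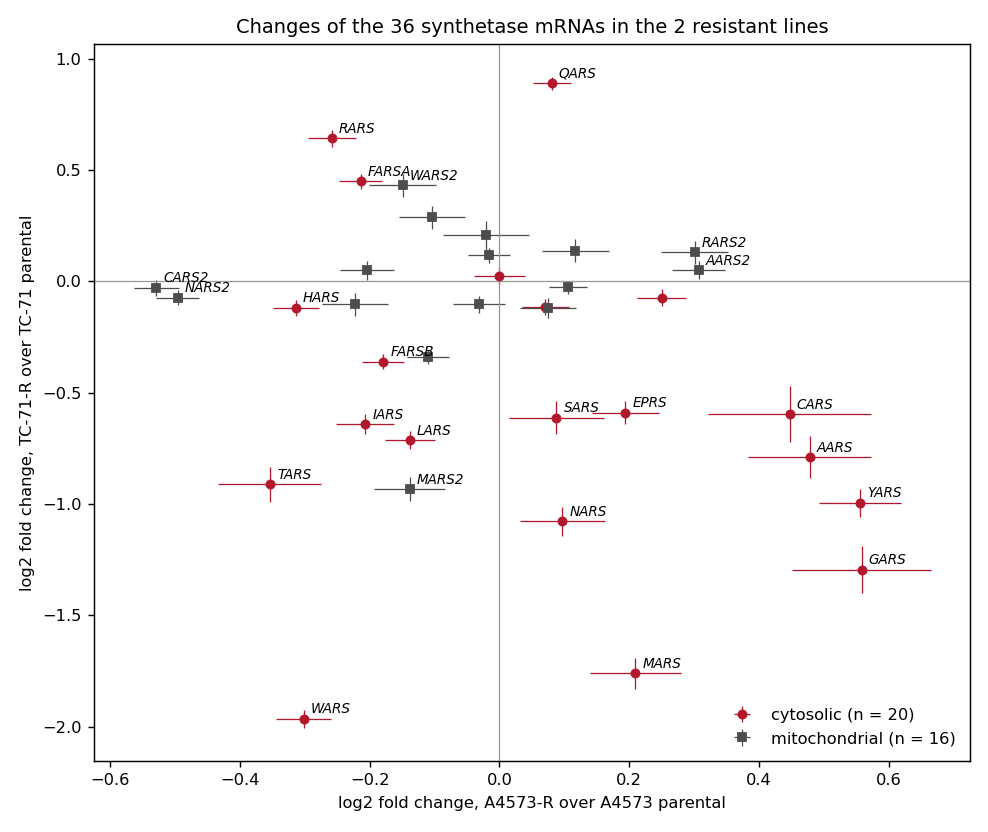
Log2 fold change in TC-71-R over TC-71 parental (y axis) against that in A4573-R over A4573 parental (x axis) for 20 cytosolic (circles) and 16 mitochondrial (squares) synthetase genes, with lines of 1 standard error. The axes differ in scale: A4573-R values lie between -0.53 and 0.56, TC-71-R values between -1.97 and 0.89, and 15 of 20 circles were called lower in TC-71-R.

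Genes were also set in 17 pairs of a cytosolic and a mitochondrial synthetase for the same amino acid. EPRS stands in 2 pairs, with EARS2 and with PARS2, and FARS2 in 2 pairs, with FARSA and with FARSB, so the pairs are not independent. In TC-71-R the cytosolic log2 fold change was below the mitochondrial one in 15 of 17 pairs, the exceptions being FARSA with FARS2 and RARS with RARS2. In A4573-R it was below in 9 of 17 pairs. The widest gap in TC-71-R was that of WARS (-1.97) and WARS2 (0.43). In A4573-R it was that of CARS (0.45) and CARS2 (-0.53). For methionine both partners fell in TC-71-R, MARS by 1.76 and MARS2 by 0.93. HARS and HARS2, whose RefSeq start sites lie 85 bases apart in opposite orientations, had log2 fold changes of -0.12 and -0.10 in TC-71-R and of -0.31 and -0.03 in A4573-R.

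**Figure D5:**
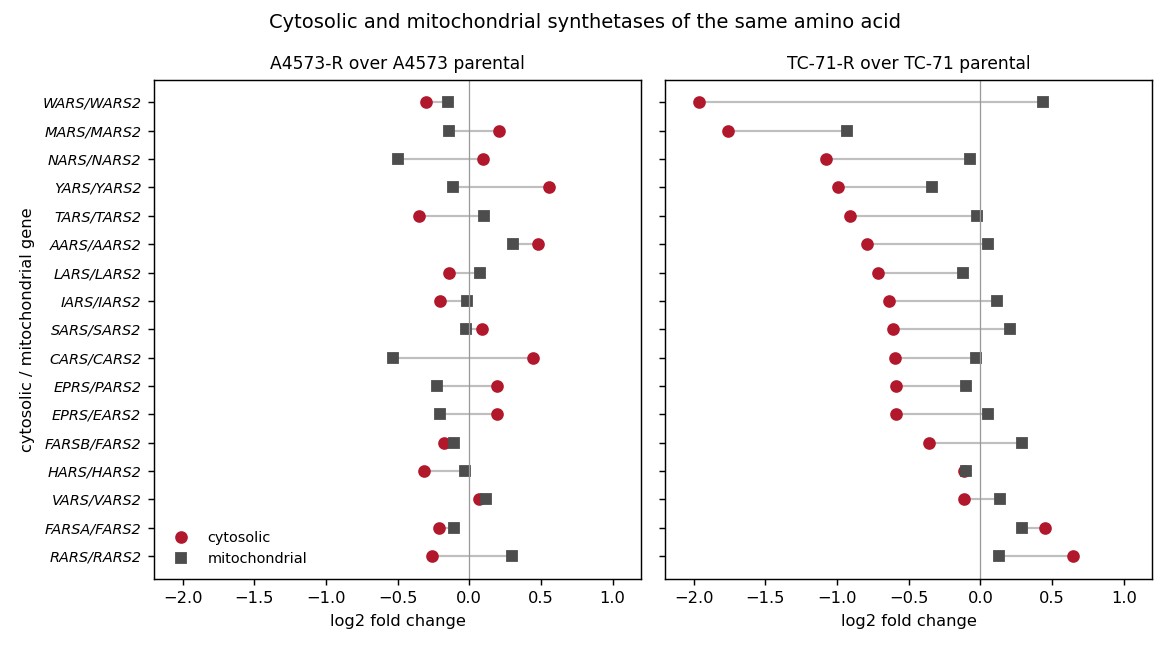
Log2 fold changes of the cytosolic (circle) and mitochondrial (square) synthetase of each amino acid, joined by a line, in A4573-R over A4573 parental (left) and TC-71-R over TC-71 parental (right). The circle lies left of the square in 15 of 17 pairs on the right and in 9 of 17 on the left.

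The promoter matches printed above can be read beside these changes. The 7 cytosolic genes with the motif all fell in TC-71-R, by 0.60 (CARS) to 1.76 (MARS), with a median of -0.91. Of the 9 cytosolic genes whose window lacked it, 5 fell, 3 rose and 1 did not pass, with a median of -0.12. WARS, which fell most, is 1 of these 9. Of all tested genes, 39.6% fell and 38.8% rose in this comparison. Cytosolic genes with no window at hand are outside the split. Of them YARS fell by 0.99, LARS by 0.71 and VARS by 0.12, and DARS did not pass. In A4573-R the 7 genes with the motif had 4 higher, 2 lower and 1 not passed (median 0.21). The 9 without it had 2 higher, 5 lower and 2 not passed (median -0.18). Of all tested genes, 38.3% rose and 34.1% fell in A4573-R. The motif was searched with earlier results of these data known, and no test was run on the split. YARS2, the 1 mitochondrial gene with a match, fell in both resistant lines.

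The parental lines themselves, both in DMSO, differed in synthetase mRNA, and these values share the parental libraries with the comparisons above. In TC-71 parental set against A4573 parental, 14 of 20 cytosolic genes were higher, 3 lower and 3 not passed, with a median log2 fold change of 0.43 against 0.02 for all genes tested. By 1.5-fold or more, 9 were higher and 2 lower. Of all tested genes, 45.9% were higher and 44.1% lower, and by 1.5-fold or more 27.0% were higher and 25.3% lower. Of the 16 mitochondrial genes, 9 were higher, 6 lower and 1 not passed, with a median of 0.14, and 4 were higher and 5 lower by 1.5-fold or more. The groups did not overlap for 18 of 20 cytosolic and 15 of 16 mitochondrial genes, against 92.5% of all tested genes.

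WARS, with the library values given above, averaged 898 ± 4.78 CPM in TC-71 parental, against 58.0 ± 1.03 CPM in A4573 parental (SD, n = 3 each), a ratio of 15.5 and a log2 fold change of 3.93 (SE 0.04, adjusted p = 1.5e-19 by limma). SARS had 706.2, 716.3 and 710.5 CPM in TC-71 parental, against 128.1, 130.6 and 126.6 CPM in A4573 parental, a log2 fold change of 2.46. AARS followed at 2.00, GARS at 1.38, CARS at 1.32 and NARS at 1.23. RARS was lower in TC-71 parental by a log2 fold change of -1.29, FARSA by -0.997 and EPRS by -0.26. FARSB, KARS and TARS did not pass (-0.04, 0.01 and -0.05). Of mitochondrial genes, MARS2 (1.07) and VARS2 (0.97) were highest in TC-71 parental relative to A4573 parental, and RARS2 (-1.25), AARS2 (-1.14) and IARS2 (-1.02) lowest. Thus for arginine both enzymes were lower in TC-71 parental, while for alanine AARS was higher and AARS2 lower.

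Other genes of the pathway were taken from lists, beginning with 26 genes of the ATF4 stress response and amino acid synthesis. In TC-71-R 23 fell, 1 rose and 2 did not pass, with a median log2 fold change of -1.40, where 39.6% of all tested genes fell and 38.8% rose. TRIB3, a pseudokinase of the stress response, had 62.8 ± 6.8 CPM in TC-71-R and 622 ± 13 CPM in TC-71 parental (SD, n = 3 each), and fell by 3.29. CHAC1, which breaks down glutathione, had 8.02 ± 0.31 CPM in TC-71-R and 56.5 ± 1.9 CPM in TC-71 parental, and fell by 2.67. ALDH1L2, a mitochondrial folate enzyme, fell by 2.87, SESN2, a leucine sensor, by 2.57, GOT1, an aspartate aminotransferase, by 2.46 and the transcription factor ATF3 by 2.03.

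In A4573-R 20 of the 26 rose and the 6 others did not pass, with a median of 0.74, where 38.3% of all tested genes rose and 34.1% fell. Without A4573-R replicate 2, 17 rose, 1 fell and 8 did not pass, with a median of 0.58. CHAC1 had 63.6 ± 34 CPM in A4573-R and 4.63 ± 0.09 CPM in A4573 parental (SD, n = 3 each), and rose by 3.40. ATF3 rose by 3.00, SESN2 by 2.50, PCK2 by 2.35, TRIB3 by 1.72 and DDIT3 by 1.46. The A4573-R libraries of this list were spread widely, with replicate 2 highest for 25 of the 26 genes and a median SD of 0.407 on the log2 scale. The interaction was negative for 25 of 26 (median -2.002), where 40.2% of all tested genes had a negative and 37.9% a positive difference. Of these 25, CBS lost its call under 16 of the other settings run, edgeR and DESeq2 among them. In TC-71 parental set against A4573 parental 23 were higher and 1 lower, with a median of 1.79. Of all tested genes, 45.9% were higher and 44.1% lower between the parental lines. ATF4 itself, named after its values were seen, averaged 501 ± 55.6 CPM in A4573-R and 295 ± 7.54 CPM in A4573 parental, and 464 ± 21.6 CPM in TC-71-R and 416 ± 8.70 CPM in TC-71 parental (SD, n = 3 each). Its mRNA rose by 0.76 in A4573-R. In TC-71-R its log2 fold change was 0.16 (adjusted p = 0.027 by limma), a call lost under 6 of the 22 other settings (adjusted p of 0.054 to 0.24), so it is the 1 gene of the list counted as risen there.

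Of 12 amino acid transporters, 9 fell, 1 rose and 2 did not pass in TC-71-R (median -1.01). Of all tested genes, 39.6% fell and 38.8% rose there. In A4573-R 9 rose, 1 fell and 2 did not pass (median 0.46), where 38.3% of all tested genes rose and 34.1% fell. Without A4573-R replicate 2 this was 8 higher, 1 lower and 3 not passed (median 0.30). SLC7A5, the light chain of the transporter of large neutral amino acids, which include tryptophan and methionine, had 179 ± 11 CPM in TC-71-R and 667 ± 14 CPM in TC-71 parental, and fell by 1.89. It had 313 ± 64 CPM in A4573-R and 199 ± 3.6 CPM in A4573 parental, and rose by 0.63 (SD, n = 3 each). SLC38A1, a glutamine carrier, fell by 2.09 in TC-71-R, SLC7A1, an arginine and lysine carrier, by 2.01 and SLC7A11, the cystine carrier, by 1.98. SLC7A3, another arginine carrier, rose by 1.78 and SLC1A4, a carrier of serine and alanine, by 1.25 in A4573-R.

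Of 14 eIF2 alpha kinases and regulators, 7 fell, 3 rose and 4 did not pass in TC-71-R (median -0.17), where 39.6% of all tested genes fell and 38.8% rose. In A4573-R 6 fell, 3 rose and 5 did not pass (median -0.06), where 34.1% of all tested genes fell and 38.3% rose. PPP1R15A (GADD34), the stress-induced subunit of the eIF2 alpha phosphatase, was the gene of this list that changed most in each resistant line. It had 28.3 ± 4.6 CPM in TC-71-R and 116 ± 2.9 CPM in TC-71 parental, and fell by 2.01. It had 21.9 ± 6.4 CPM in A4573-R and 10.7 ± 0.25 CPM in A4573 parental, and rose by 0.93 (SD, n = 3 each). EIF2B1, a subunit of the exchange factor of eIF2, fell by 0.77 in TC-71-R and by 0.28 in A4573-R. EIF2AK4 (GCN2), the kinase that senses uncharged tRNA, fell by 0.61 in TC-71-R, PPP1R15B, the constitutive subunit of the eIF2 alpha phosphatase, by 0.57 and GCN1, the activator of GCN2, by 0.56.

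Among 7 tested scaffold and tRNA delivery genes, 4 fell and 3 rose in TC-71-R, where 39.6% of all tested genes fell and 38.8% rose. In A4573-R 4 fell, 2 rose and 1 did not pass, where 34.1% of all tested genes fell and 38.3% rose. XPOT, which exports tRNA from the nucleus, had 383 ± 10 CPM in TC-71-R and 897 ± 2.2 CPM in TC-71 parental (SD, n = 3 each), and fell by 1.23. In A4573-R it fell by 0.16, and by 0.09 without A4573-R replicate 3. All 3 scaffolds fell in both resistant lines. In TC-71-R EEF1E1 fell by 0.31, AIMP1 by 0.22 and AIMP2, named there after its values were seen, by 0.20. In A4573-R AIMP2 fell by 0.56, AIMP1 by 0.27 and EEF1E1 by 0.21. The 3 genes that rose in TC-71-R encode subunits of elongation factor 1, whose alpha subunit carries charged tRNA to the ribosome. EEF1B2 had 618 ± 10.3 CPM in TC-71-R and 281 ± 13.3 CPM in TC-71 parental (SD, n = 3 each), and rose by 1.13. EEF1A1 rose by 0.87 and EEF1D by 0.73 in TC-71-R, and by 0.52 and 0.44 in A4573-R, where EEF1B2 did not pass (0.06). EEF1A1 has many near-identical pseudogenes that could share its reads.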

How the data were processed

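Total RNA was sequenced as paired ends of 100 bases from TruSeq RNA libraries, per the labels' protocols. The submitters' processing notes name Trimmomatic, STAR 2.4, HTSeq, edgeR and the GRCh38 build. The deposited signal is CPM on library sizes that the authors scaled: each value divided by its column's step was whole within 0.001 for 100% of values, and column sums were 0.940 to 1.12 M. The 5 entries without a gene name (30.6% to 42.0% of reads) were left out of tests and recovered reads.

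Genes reaching 1 CPM in 3 or more of 12 libraries were tested as log2(CPM + 1) in 1 model of the 4 groups with limma 3.58.1 (R 4.3.3, trend on mean expression, Benjamini-Hochberg threshold 0.05); log2 fold changes of genes with few CPM are understated. edgeR 4.0.16 and DESeq2 1.42.0 on recovered reads were among the alternatives, with another pseudocount (0.25), filters (none, or a mean of at least 5 CPM), TMM, median-of-ratios and named-gene scaling, a fit of 1 line, a replicate block and each library left out. A limma fit of A4573-R against A4573 parental alone was tested on simulated data, with the same spread for all genes of a group. The model of the 4 groups and the interaction were not simulated, so the simulation says nothing of their p-values. The model holds 1 spread per gene for the 4 groups, so variable A4573-R libraries also enter the standard errors in TC-71-R. In turn, the less variable groups can make standard errors and p-values in A4573-R too small for genes that vary widely there. With the A4573 libraries fitted alone, MARS, MARS2, PSAT1, SHMT2, PYCR1, SLC7A11 and DTD1 no longer passed, and EIF2B5 passed as lower. With the TC-71 libraries fitted alone, DARS, CTH, SLC1A4, SLC38A2 and EIF2B3 also passed as lower. RARS2 and TRNT1 no longer passed in that fit. Exact tests of 3 against 3 libraries cannot go below p = 0.1 and were not used. Levels per length use GENCODE 29 exon lengths, and promoters are RefSeq windows on GRCh38.p14. The genes and lists were chosen with earlier results of these data known. All 36 synthetases were named, and the other genes were drawn from up to 6 of each list per comparison, those past the threshold with the largest change. The text gives some of these, and exceptions are stated. EEF1G, of the scaffold and tRNA delivery list, and PRORSD1P, of the charging and editing list, did not enter the test.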

Additional observations from a re-analysis of the deposited data

Results flagged for a closer look

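The change in TC-71-R minus the change in A4573-R, tested as an interaction with limma, passed the threshold for 32 of the 36 synthetase genes. Of all tested genes, 40.2% had a negative and 37.9% a positive difference past the threshold. On the log2 scale the difference in cytosolic genes was -1.97 for MARS, -1.85 for GARS, -1.66 for WARS, -1.55 for YARS, -1.27 for AARS, -1.17 for NARS and -1.04 for CARS. It was -0.78 for EPRS, -0.70 for SARS, -0.57 for LARS, -0.56 for TARS, -0.43 for IARS, -0.32 for DARS, -0.19 for VARS and -0.18 for FARSB. It was positive at 0.90 for RARS, 0.81 for QARS, 0.66 for FARSA and 0.20 for HARS.

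In mitochondrial genes the difference was -0.79 for MARS2, -0.26 for AARS2, -0.23 for YARS2, -0.19 for LARS2, -0.17 for RARS2 and -0.13 for TARS2. It was positive at 0.58 for WARS2, 0.50 for CARS2, 0.42 for NARS2, 0.39 for FARS2, 0.25 for EARS2, 0.23 for SARS2 and 0.13 for IARS2. Those of RARS2 (adjusted p = 0.043) and SARS2 (adjusted p = 0.037) lost their call under 13 and 10 of the other settings run, TARS2 with edgeR and DESeq2, and IARS2 with CPM over named genes.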

How the results depend on the processing

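Depth was alike across groups, and the scalings moved the median of all genes by at most 0.07 on the log2 scale. Counts of cytosolic genes called stayed within 1.5 times of those reported under all 22 settings, and no synthetase past the threshold changed sign. Leaving out 1 library in turn gave 14 to 16 cytosolic genes lower in TC-71-R, and 7 to 10 higher in A4573-R. Of 144 gene results, 113 kept their call under all settings. Mitochondrial counts in TC-71-R depend on scaling and tool: CPM over named genes gave 3 higher and 8 lower, and edgeR and DESeq2 gave 2 lower each. The mitochondrial median log2 fold change in TC-71-R was -0.0591 with CPM over named genes. The median of the mitochondrial differences between the lines was 0.0217 with a mean filter of 5 CPM, 0.00596 with CPM over named genes, 0.136 with edgeR and 0.116 with DESeq2. The mitochondrial median between the parental lines was 0.0919 with median-of-ratios scaling and 0.215 with CPM over named genes. The cause was not tested. For the other lists the same settings were added after the data were seen, and no listed gene past the threshold changed sign. On recovered reads edgeR called 10527 genes in A4573-R and 11410 in TC-71-R, against 10389 and 11248 with limma. Same-numbered libraries correlated at -0.10 to 0.17 in their deviations from group means. With 3 libraries per group, such values cannot settle whether equal numbers share a culture or batch, and the main model did not pair them. The replicate block called 10422 and 11285 genes and the same number of synthetases in each direction.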

Other observations

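Mitochondrial translation depends on further genes, of which 18 were taken from a list chosen with earlier results known. In TC-71-R 9 fell, 4 rose and 5 did not pass (median log2 fold change -0.09), where 39.6% of all tested genes fell and 38.8% rose. In A4573-R 6 fell, 5 rose and 7 did not pass (median 0.03), where 34.1% of all tested genes fell and 38.3% rose. GFM1, an elongation factor of the mitochondrial ribosome, fell by 0.74 in TC-71-R and by 0.49 in A4573-R. Mitochondria have no glutaminyl-tRNA synthetase and make glutaminyl-tRNA from glutamyl-tRNA with the subunits GATB, GATC and QRSL1. In TC-71-R GATB rose by 0.73, with 33.0 ± 1.6 CPM in TC-71-R and 19.5 ± 0.50 CPM in TC-71 parental (SD, n = 3 each). GATC fell by 0.64 and QRSL1 by 0.50 in the same cells, so the mRNAs of the 3 subunits did not move together. In A4573-R QRSL1 rose by 0.43. MTO1, which modifies mitochondrial tRNA, fell by 1.06 in TC-71-R and rose by 0.52 in A4573-R. TRNT1, which adds the CCA end that a synthetase charges, fell by 0.92 in A4573-R.

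Of 5 tested genes of other tRNA charging and editing steps, 2 rose, 2 fell and 1 did not pass in TC-71-R. Of all tested genes, 38.8% rose and 39.6% fell there. In A4573-R 2 rose and 3 fell, where 38.3% of all tested genes rose and 34.1% fell. PSTK and SEPSECS turn seryl-tRNA, made by SARS, into selenocysteinyl-tRNA. In TC-71-R PSTK fell by 0.69 and SEPSECS rose by 0.48. In A4573-R both rose, PSTK by 0.46 and SEPSECS by 0.42. In TC-71 parental set against A4573 parental both were higher, by 1.66 and 1.83, beside the 2.46 of SARS.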
